A study of Mus musculus with 4 samples.

Results

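The 8 genes described here encode receptors through which blood cells sense myeloid cytokines: Csf1r, Csf3r, Csf2ra, Csf2rb, Csf2rb2, Il3ra, Il6ra and Il6st. They were chosen by name among the 55399 genes of a bulk RNA-seq count table, and all 8 had enough reads to be tested. The table holds 4 mouse bone marrow libraries from cells labelled Lsk, a term for marrow cells that lack lineage markers and carry Sca-1 and Kit, among them blood stem cells and multipotent progenitors. In 2 libraries the genotype was Ppm1bCKO, a conditional knockout of the phosphatase gene Ppm1b, and in the other 2 it was Ppm1bfl/fl, in which loxP sites flank the gene. The sources used here do not give the Cre line, the age of the mice or whether each library came from its own animal, so p-values measure the spread between these libraries, which may be technical.

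Cytokine receptors of this group follow a few plans. The receptor for CSF1 (M-CSF) is a tyrosine kinase in itself. The receptors for G-CSF, GM-CSF, IL-3 and IL-6 have no kinase domain and signal through bound Janus kinases and STAT transcription factors. GM-CSF, IL-3 and IL-5 each use their own alpha chain with a shared beta chain, and mice carry an additional beta chain gene that serves IL-3 alone. IL-6 binds an alpha chain and then recruits gp130, which is shared by the IL-6 family. In marrow these receptors support the survival, growth and maturation of granulocytes, monocytes and macrophages.

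Total counts ran from 22393973 to 30045382 per library. Kit, which helps to define the Lsk fraction, stood at 187 and 121 CPM (counts scaled to the size of the library) in Ppm1bCKO libraries and at 228 and 194 CPM in Ppm1bfl/fl libraries, and Ly6a, which encodes Sca-1, lay between 17.7 and 22.2 CPM in all 4. Some transcripts of mature cells were more abundant, such as the eosinophil granule gene Prg2 at 2286 and 4200 CPM in Ppm1bCKO and 1487 and 1484 CPM in Ppm1bfl/fl. Others were less abundant than Kit in every library, among them Il5ra, also an eosinophil marker. The levels below describe all the cells collected. Ppm1b itself was not lower in the libraries labelled Ppm1bCKO, at 84.3 and 121 CPM against 80.7 and 82.5 CPM in Ppm1bfl/fl, so the directions below follow the labels and were not checked by the targeted gene. Ppm1bCKO replicate 2 stood apart by gene length. Against Ppm1bCKO replicate 1 its median log2 ratio was 0.30 for the shortest quartile of tested genes (up to 2056 exonic bases) and -0.25 for the longest quartile (over 6134 bases), where the Ppm1bfl/fl replicates differed by medians of 0.010 and -0.028.

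None of the 8 receptor genes passed the test between the genotypes, and 7 of them had a lower fitted level in Ppm1bCKO, as did 50.4% of all tested genes. The edgeR quasi-likelihood test with Benjamini-Hochberg adjustment over 16393 tested genes called 0 of the 8 at an adjusted p under 0.05, where 0.372% of all tested genes were called. DESeq2 and limma-voom also called 0, where they called 1.21% and 0.311% of all tested genes. In edgeR 1 member, Csf3r, had an unadjusted p under 0.05, as did 6.44% of tested genes. Log2 fold changes, Ppm1bCKO over Ppm1bfl/fl, ran from -0.46 for Csf3r to 0.17 for Il3ra with a median of -0.21, where the median of all tested genes was -0.0032. For 5 of the 8 both Ppm1bCKO libraries lay below both Ppm1bfl/fl libraries, an arrangement found in 20.6% of tested genes. Summed over the 8 genes, the level was 1107 and 895 CPM in Ppm1bCKO and 1183 and 1165 CPM in Ppm1bfl/fl. In a bulk sample, fewer cells of a type and less RNA per cell cannot be told apart.

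**Figure D1:**
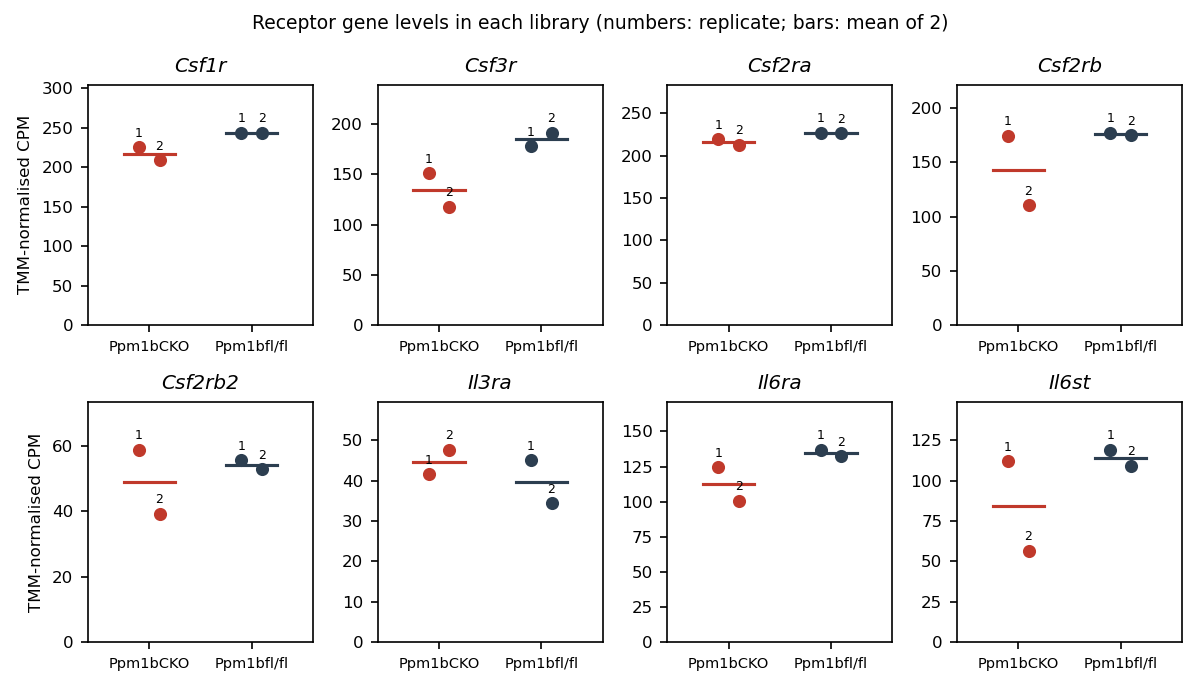
TMM-normalised CPM of each receptor gene in every library, with Ppm1bCKO (red) left of Ppm1bfl/fl (dark blue), points numbered by replicate and bars at the mean of 2 libraries; each axis starts at 0. Il6st and Csf2rb show the widest gap between the Ppm1bCKO replicates, 112 and 56.7 CPM and 175 and 111 CPM.

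Csf1r, the receptor of CSF1 and IL-34 on monocytes and macrophages, was among the more abundant members. It lies on chromosome 18 (61100598 to 61132149, plus strand, mm10). Its level was 225 and 209 CPM in Ppm1bCKO and 244 and 243 CPM in Ppm1bfl/fl. The Ppm1bCKO libraries lay slightly below the other pair without overlap, and the log2 fold change was -0.17 ± 0.16 (SE; edgeR adjusted p = 0.766). Of its 5774 exonic bases, 15.1% also belong to exons of Hmgxb3 on the other strand, and the strand setting of the counting was not given, so reads there could not be assigned with certainty. Macrophage markers other than Csf1r were lower in fitted level in 14 of 14 cases, with a median log2 fold change of -0.56, and summed to 540 and 671 CPM in Ppm1bCKO and 914 and 939 CPM in Ppm1bfl/fl. Of 8 monocyte markers 5 had a positive log2 fold change, and the list summed to 2873 and 2335 CPM in Ppm1bCKO and 2759 and 3134 CPM in Ppm1bfl/fl. By edgeR 0 genes of either list were called. At an unadjusted p under 0.05 were 7 of 14 macrophage and 3 of 8 monocyte markers, where 6.44% of all tested genes were. DESeq2 called 4 and 1 of these markers, where it called 1.21% of all tested genes, and limma-voom called 0. The part of these markers in the Csf1r level was not tested.

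Csf3r, the receptor of G-CSF that drives granulocyte production, had the smallest p of the 8. It lies on chromosome 4 (126024550 to 126044440, plus strand). Csf3r stood at 151 and 118 CPM in Ppm1bCKO and at 178 and 191 CPM in Ppm1bfl/fl. Both Ppm1bCKO libraries were below both others, with replicate 2 the lowest. The fitted level was 1.37-fold higher in Ppm1bfl/fl, -0.46 ± 0.18 on the log2 scale, which did not pass (unadjusted p = 0.0323, edgeR adjusted p = 0.717). The value was -0.29 with Ppm1bCKO replicate 2 left out (edgeR adjusted p = 0.999) and -0.65 with replicate 1 left out (edgeR adjusted p = 0.00522). Of mature neutrophil markers, of cells that carry this receptor, 7 of 11 had a positive log2 fold change (median 0.036), and the list summed to 4658 and 5468 CPM in Ppm1bCKO and 4641 and 4497 CPM in Ppm1bfl/fl. Of granulocyte-monocyte progenitor markers 6 of 8 had a positive log2 fold change (median 0.14) and 4 had both Ppm1bCKO libraries above both others, as had 20.6% of all tested genes, and the list summed to 6391 and 6374 CPM in Ppm1bCKO and 6624 and 6018 CPM in Ppm1bfl/fl. By edgeR 0 genes of these lists were called. At an unadjusted p under 0.05 were 1 of 11 neutrophil and 2 of 8 progenitor markers, where 6.44% of all tested genes were. DESeq2 called 1 and 0 of these markers, where it called 1.21% of all tested genes, and limma-voom called 0.

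The myeloid transcription factor PU.1 is known from human genes to act on promoters of several of these receptors. The promoters of Csf3r, the member with the smallest p, and of Csf2ra, the most abundant member per length, are shown from 250 bases before to 50 bases after the start of the RefSeq gene (GRCm38.p6, 5′ to 3′ on the gene's strand), at chr4:126024409-126024708 (plus strand) and chr19:61228369-61228668 (minus strand). Capitals mark GAGGAA, the core of PU.1 sites.
Csf3r: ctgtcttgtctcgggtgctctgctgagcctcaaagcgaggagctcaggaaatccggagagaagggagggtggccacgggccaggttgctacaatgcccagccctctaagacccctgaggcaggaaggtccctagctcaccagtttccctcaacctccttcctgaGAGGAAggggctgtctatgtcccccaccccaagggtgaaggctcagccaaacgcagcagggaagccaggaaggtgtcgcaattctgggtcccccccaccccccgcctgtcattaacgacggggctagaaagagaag
Csf2ra: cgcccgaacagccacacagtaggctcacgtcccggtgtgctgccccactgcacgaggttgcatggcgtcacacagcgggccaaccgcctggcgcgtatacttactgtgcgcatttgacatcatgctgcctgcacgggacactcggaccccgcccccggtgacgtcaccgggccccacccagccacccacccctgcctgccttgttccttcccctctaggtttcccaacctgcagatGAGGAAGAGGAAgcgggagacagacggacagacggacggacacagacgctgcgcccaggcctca
In Csf3r the core began 86 bases before the start. In Csf2ra it occurred in tandem, beginning 14 and 8 bases before the start. RefSeq promoters of 6 members were searched: Csf3r, Csf2ra, Csf2rb2, Il3ra, Il6ra and Il6st. Of these 6, 4 held GAGGAA on either strand, as did 28.3% of 32851 promoters of the same length. The chromosome of Csf1r was skipped in the search of the members, and no promoter of Csf2rb was searched, so the counts cover neither. The C/EBP motif TTGCNNAA was in 1 of the 6, Il3ra, and in 10.8% of all promoters, and the STAT motif TTCNNNGAA was in 1, Csf2rb2, and in 8.30% of all. No searched motif overlapped another in these 6. These are matches of letters in a short window and say nothing of binding. Spi1, which encodes PU.1, stood at 191 and 247 CPM in Ppm1bCKO and 206 and 200 CPM in Ppm1bfl/fl (log2 fold change 0.11 ± 0.18, edgeR adjusted p = 0.853; -0.088 without Ppm1bCKO replicate 2).

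Csf2ra, the alpha chain that binds GM-CSF, was the steadiest of the 8. It lies on chromosome 19 (61223957 to 61228429, minus strand) and shares no exonic base with another gene of the table. Its level was 219 and 213 CPM in Ppm1bCKO and 227 CPM in both Ppm1bfl/fl libraries. The groups lay close together without overlap, at a fitted difference of -0.071 ± 0.16 on the log2 scale (edgeR adjusted p = 0.896).

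Il3ra, the alpha chain of the IL-3 receptor, was the only member with a positive log2 fold change. It lies on chromosome 14 (14346275 to 14356011, plus strand). Il3ra stood at 41.6 and 47.6 CPM in Ppm1bCKO and at 45.1 and 34.4 CPM in Ppm1bfl/fl. The genotypes overlapped, and the wider gap was between the Ppm1bfl/fl libraries. Its log2 fold change of 0.17 ± 0.19 did not pass (edgeR adjusted p = 0.797), and it was -0.017 without Ppm1bfl/fl replicate 2. Mast cell and basophil markers, of cells that respond to IL-3, had 5 of 7 tested members with a negative log2 fold change (median -0.065) and summed to 1186 and 1090 CPM in Ppm1bCKO and 1232 and 1081 CPM in Ppm1bfl/fl.

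Csf2rb and Csf2rb2 are neighbouring paralogs on chromosome 15. Csf2rb, the beta chain shared by the GM-CSF, IL-3 and IL-5 receptors, lies at 78325752 to 78353847 on the plus strand. Csf2rb2, the mouse beta chain that serves the IL-3 receptor, lies at 78282507 to 78305721 on the minus strand, 20030 bases away. Over the coding sequences of a main GENCODE transcript of each (2688 and 2634 bases), 2503 of 2628 aligned bases were identical, or 95.2%, and 66 alignment columns held a gap. The longest identical run was 242 bases. To show how far reads can tell the genes apart, the stretches below are 90 coding bases each, 5′ to 3′ in the direction of the gene. The first pair is the stretch with the most differences, 16, which capitals mark, at chr15:78338897-78338986 (plus strand) in Csf2rb and chr15:78294345-78294434 (minus strand) in Csf2rb2 (mm10). The third sequence is spliced across an exon junction and the same in both genes.
Csf2rb: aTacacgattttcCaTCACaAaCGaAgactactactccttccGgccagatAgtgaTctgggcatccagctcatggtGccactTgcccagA
Csf2rb2: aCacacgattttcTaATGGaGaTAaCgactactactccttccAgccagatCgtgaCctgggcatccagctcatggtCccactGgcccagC
Csf2rb and Csf2rb2, identical: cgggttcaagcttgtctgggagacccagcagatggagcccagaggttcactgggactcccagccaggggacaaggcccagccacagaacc
Of all windows of 50 bases along the Csf2rb transcript, 18.9% also occurred unchanged in a Csf2rb2 transcript, and 7.16% of windows of 100 bases did. Along the Csf2rb2 transcript the shares found in Csf2rb were 19.0% and 7.20%. How reads with several matches were counted, and their length, is unknown here. The split of reads between the paralogs is therefore uncertain, by an amount that these shares do not measure.

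Csf2rb stood at 175 and 111 CPM in Ppm1bCKO and at 177 and 175 CPM in Ppm1bfl/fl. Only Ppm1bCKO replicate 2 was apart from the rest, with replicate 1 just below the Ppm1bfl/fl libraries. The fitted log2 fold change of Csf2rb was -0.30 ± 0.22 (edgeR adjusted p = 0.725), or -0.013 with Ppm1bCKO replicate 2 left out. Csf2rb2 stood at 58.8 and 39.4 CPM in Ppm1bCKO and at 55.7 and 53.0 CPM in Ppm1bfl/fl. The genotypes overlapped, since the Ppm1bCKO replicates were the highest and the lowest of the 4 libraries, and the log2 fold change was -0.15 ± 0.21 (edgeR adjusted p = 0.834), or 0.11 without Ppm1bCKO replicate 2. With the paralogs summed as a single gene, the log2 fold change was -0.27 (edgeR adjusted p = 0.743). Csf2rb2 took 25.2% (95% Wilson interval 24.0 to 26.4) and 26.2% (24.8 to 27.7) of the counts of both genes in Ppm1bCKO replicates 1 and 2, and 23.9% (22.9 to 24.99) and 23.2% (22.2 to 24.2) in Ppm1bfl/fl replicates 1 and 2. The share was higher in both Ppm1bCKO libraries, by 2.15 percentage points on average (25.7 ± 0.74% against 23.6 ± 0.48%; SD, n = 2 each; two-sided exact permutation p = 0.333, the smallest that 2 against 2 libraries allow). The intervals cover counting error only. Those of Ppm1bCKO replicate 2 and Ppm1bfl/fl replicate 2 are apart, and every other pair between the genotypes overlaps.

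**Figure D2:**
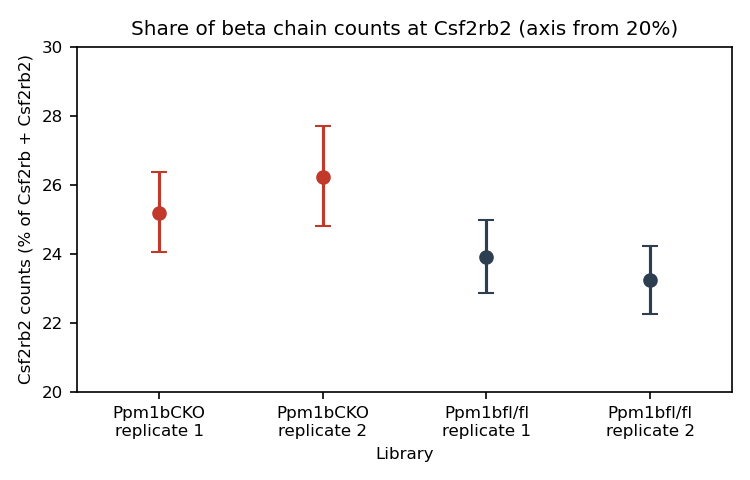
Counts at Csf2rb2 as a percentage of counts at Csf2rb and Csf2rb2 together in each library, Ppm1bCKO left and Ppm1bfl/fl right, with 95% Wilson intervals; the axis starts at 20%. The shares are 25.2% and 26.2% in Ppm1bCKO and 23.9% and 23.2% in Ppm1bfl/fl.

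Il6ra, the alpha chain that binds IL-6, lies on chromosome 3 (89864059 to 89913196, minus strand). It stood at 124 and 101 CPM in Ppm1bCKO and at 137 and 132 CPM in Ppm1bfl/fl. Both Ppm1bCKO libraries were below both others, replicate 2 more so. Its log2 fold change of -0.26 ± 0.17 did not pass (edgeR adjusted p = 0.721), and it was -0.11 without Ppm1bCKO replicate 2. Il6st, which encodes gp130, lies on chromosome 13 (112464070 to 112510086, plus strand). It stood at 112 and 56.7 CPM in Ppm1bCKO and at 119 and 109 CPM in Ppm1bfl/fl. Ppm1bCKO replicate 2 was far below the other 3 libraries, and replicate 1 lay between the Ppm1bfl/fl libraries. The log2 fold change was -0.43 ± 0.29 (edgeR adjusted p = 0.721). It was -0.025 with Ppm1bCKO replicate 2 left out and -1.01 with replicate 1 left out (edgeR adjusted p = 0.000558).

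**Figure D3:**
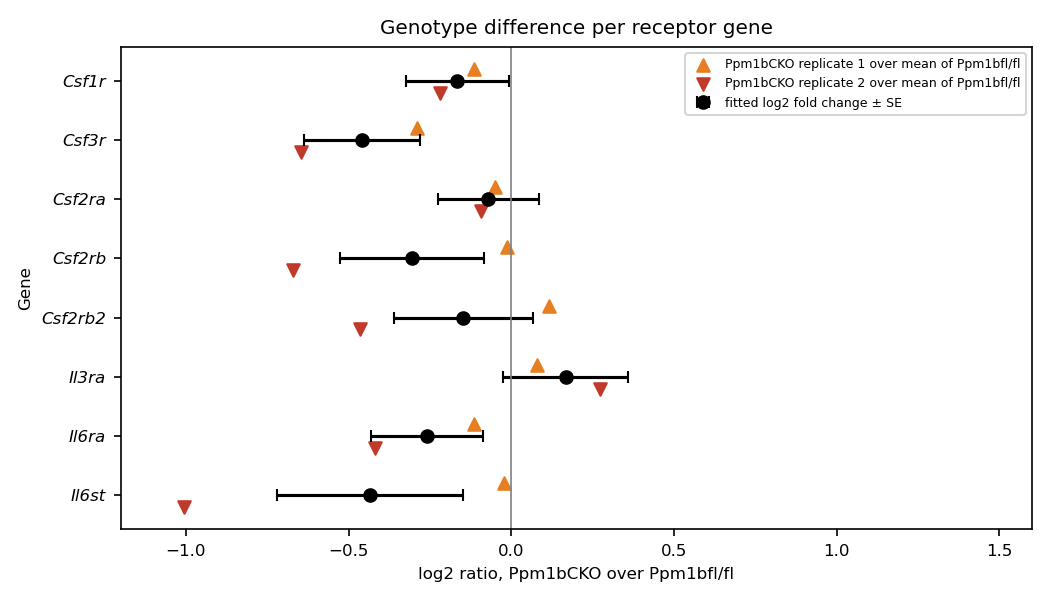
Fitted log2 fold change, Ppm1bCKO over Ppm1bfl/fl, of each receptor gene with its standard error (black), and the log2 ratio of Ppm1bCKO replicate 1 (orange) and replicate 2 (red) over the mean of the Ppm1bfl/fl libraries. For Il6st and Csf2rb replicate 1 lies near 0, at -0.023 and -0.013, and replicate 2 at -1.01 and -0.67.

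For most of the receptor genes, Ppm1bCKO replicate 2 lay below replicate 1. The log2 ratio of replicate 2 over replicate 1 was -0.98 for Il6st, -0.66 for Csf2rb, -0.58 for Csf2rb2, -0.36 for Csf3r and -0.31 for Il6ra, and 0.19 for Il3ra, while Csf1r and Csf2ra were at -0.11 and -0.042. Between the Ppm1bfl/fl replicates, the same ratio spanned -0.39 for Il3ra to 0.10 for Csf3r. Over all tested genes the median absolute log2 ratio was 0.33 between the Ppm1bCKO replicates and 0.17 between the Ppm1bfl/fl replicates. The long genes Il6st (11099 exonic bases), Il6ra (8642) and Csf2rb (7277) belong to the quartile of longest genes, whose median ratio was -0.25. Within that quartile, 4.32% of genes had a ratio as low as Il6st, 13.9% as low as Csf2rb and 43.1% as low as Il6ra. Csf3r has 3609 exonic bases, and 14.4% of the genes of its quartile, whose median ratio was 0.14, were as low. Csf2rb2 has 4740 exonic bases, and 8.79% of the genes of its quartile, whose median ratio was -0.040, were as low. For Csf1r, Csf2ra and Il3ra the shares of their quartiles were 42.4%, 32.3% and 55.3%. With each library's trend with length removed, an alternative chosen after seeing the data, log2 fold changes were -0.48 for Csf3r, -0.30 for Il6st, -0.22 for Csf2rb, -0.14 for Il6ra, -0.14 for Csf2ra, -0.13 for Csf2rb2, -0.11 for Csf1r and 0.10 for Il3ra, and 0 of the 8 members were called by edgeR (smallest adjusted p = 0.554).

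**Figure D4:**
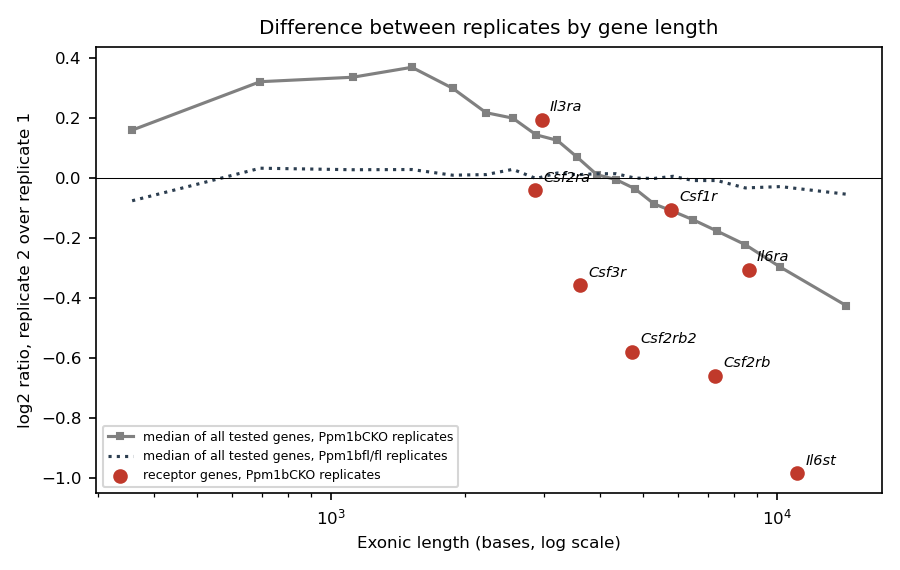
Log2 ratio of replicate 2 over replicate 1 against exonic length (log axis), with the medians of all tested genes in 20 bins of length for Ppm1bCKO (grey) and Ppm1bfl/fl (dotted), and the 8 receptor genes in Ppm1bCKO (red). Csf1r and Il6ra lie close to the grey line, and Il6st, Csf2rb, Csf2rb2 and Csf3r lie below it.

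When Ppm1bCKO replicate 1 was left out, so that replicate 2 alone represented the genotype and was assumed to vary like the Ppm1bfl/fl pair, edgeR called 5 of the 8 members lower: Csf3r, Csf2rb, Csf2rb2, Il6ra and Il6st. In that setting 19.4% of all tested genes were called in either direction and 9.22% lower. When Ppm1bCKO replicate 2 was left out, 0 of the 8 were called, where 0.547% of all tested genes were, and 6 had a negative log2 fold change.

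Per length, Csf2ra was the most abundant receptor transcript and Il6st the least. In TPM, counts per exonic length scaled to the same total in every library, Csf2ra averaged 216 ± 34.1 in Ppm1bCKO and 235 ± 1.22 in Ppm1bfl/fl (SD, n = 2 each). In Ppm1bCKO replicates 1 and 2 it was at 240 and 192 TPM, where its CPM values were 219 and 213. Csf1r was at 122 and 93.6 TPM there, against 225 and 209 CPM. The part of the length trend of Ppm1bCKO replicate 2 in these TPM means and SDs was not tested. Csf3r averaged 108 ± 33.4 TPM in Ppm1bCKO and 152 ± 8.69 TPM in Ppm1bfl/fl, and Csf1r 108 ± 20.4 TPM in Ppm1bCKO and 125 ± 0.68 TPM in Ppm1bfl/fl. The ranges of Csf3r and Csf1r overlapped in Ppm1bCKO and did not in Ppm1bfl/fl. By mean, Csf2rb followed at 57.4 ± 25.5 TPM in Ppm1bCKO and 71.9 ± 0.21 TPM in Ppm1bfl/fl. In Ppm1bCKO its range, 75.5 and 39.3 TPM, overlapped those of Il3ra (44.1 and 41.5 TPM) and Il6ra (45.3 and 30.1 TPM). The other 4 members lay close together, with means from 22.5 to 42.8 TPM in Ppm1bCKO and from 30.5 to 46.2 TPM in Ppm1bfl/fl, and the order of Il3ra and Il6ra, next to each other there, differed between the genotypes. In Ppm1bCKO the ranges of these 4 overlapped between each gene and the next in order, and in Ppm1bfl/fl those of Il3ra and Csf2rb2 did, whereas Il6ra lay above and Il6st below. The exonic length in the table is the union of all annotated isoforms, so genes with long rare isoforms are set too low on this scale.

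Ratios between the chains of a receptor were alike in 3 libraries and higher in Ppm1bCKO replicate 2. In each ratio the first gene has fewer exonic bases than the gene or genes it is set over. Csf2ra has 2871 against 7277 for Csf2rb, and Il6ra 8642 against 11099 for Il6st. Il3ra has 2967, against 7277 for Csf2rb and 4740 for Csf2rb2. Against Ppm1bCKO replicate 1, median levels in replicate 2 fell from the shortest to the longest quartile of genes. The part of this length trend in the ratios was not tested. Per length, Csf2ra was 3.18 and 4.88 times as abundant as Csf2rb in Ppm1bCKO and 3.25 and 3.29 times in Ppm1bfl/fl. Il6ra was 1.43 and 2.28 times as abundant as Il6st in Ppm1bCKO and 1.48 and 1.56 times in Ppm1bfl/fl. For Il3ra over the sum of both beta chain genes the ratios were 0.385 and 0.682 in Ppm1bCKO and 0.421 and 0.329 in Ppm1bfl/fl. Two-sided exact permutation tests of the log2 ratios gave p = 1, 1 and 0.667 in this order (Benjamini-Hochberg adjusted p = 1 for each), with 0.333 the smallest possible.

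Genes of the same pathways did not pass the test either. The 7 lists covered ligands, related receptors, signal transducers, negative regulators, genes of receptor shedding, STAT response genes and myeloid transcription factors. Of their 87 genes, 81 were tested, and 0 were called by edgeR, DESeq2 or limma-voom. These tools called 0.372%, 1.21% and 0.311% of all tested genes. In edgeR 8 of the 81 had an unadjusted p under 0.05, as did 6.44% of all tested genes. Log2 fold changes were positive for 38 and negative for 43 of the 81, with a median of -0.065. Without Ppm1bCKO replicate 1, 14 of the 81 were called, where 19.4% of all tested genes were, and without replicate 2, 1 was, where 0.547% of all tested genes were.

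Among the ligands, 9 of 14 were tested, 5 with a positive and 4 with a negative log2 fold change (median 0.32). Il6 stood at 55.5 and 33.2 CPM in Ppm1bCKO and at 28.3 and 23.2 CPM in Ppm1bfl/fl. Both Ppm1bCKO libraries were above both others, with a log2 fold change of 0.78 ± 0.26 that did not pass (edgeR adjusted p = 0.645). It was called without Ppm1bCKO replicate 2 (1.10, edgeR adjusted p = 0.00653) and without a low-count filter (0.77, edgeR adjusted p = 0.0236), and it was 0.36 without Ppm1bCKO replicate 1 (edgeR adjusted p = 0.170). Csf1 lay between 60.6 and 91.5 CPM. Csf2 and Csf3 were at or below 0.72 and 0.29 CPM in every library, and no read of Il3 was counted, which allows up to 0.0998 to 0.134 CPM (3 counts per library). These low levels describe the cells collected, and cytokines made elsewhere were not measured.

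Of 13 tested related receptors, 7 had a positive log2 fold change. Il5ra, the alpha chain that shares Csf2rb for IL-5, stood at 9.94 and 10.4 CPM in Ppm1bCKO and at 7.18 and 6.37 CPM in Ppm1bfl/fl (0.59 ± 0.23, edgeR adjusted p = 0.717). Both Ppm1bCKO libraries were above both others. Eosinophil markers, a list that also holds Il5ra, had 8 of 9 members with a positive log2 fold change (median 1.05) and summed to 4540 and 7963 CPM in Ppm1bCKO and 3013 and 3324 CPM in Ppm1bfl/fl. By edgeR 0 of the 9 were called, with 6 at an unadjusted p under 0.05, where 6.44% of all tested genes were. DESeq2 called 5 of the 9, where it called 1.21% of all tested genes, and limma-voom called 0. The part of these markers in the Il5ra level was not tested. Kit, a receptor tyrosine kinase like Csf1r, was at -0.46 ± 0.22 on the log2 scale (edgeR adjusted p = 0.717), or -0.80 without Ppm1bCKO replicate 1 (edgeR adjusted p = 0.00271) and -0.18 without replicate 2 (edgeR adjusted p = 0.999).

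Of 21 signal transducers, 16 had a negative log2 fold change (median -0.14). Jak1, the kinase bound to gp130, and Jak2, the kinase of the shared beta chain, had log2 fold changes of -0.12 ± 0.18 and -0.093 ± 0.18, which were 0.047 and 0.097 without Ppm1bCKO replicate 2. Jak3 stood at 67.6 and 48.5 CPM in Ppm1bCKO and at 83.3 and 78.6 CPM in Ppm1bfl/fl (-0.48 ± 0.20, edgeR adjusted p = 0.717). Stat5a and Stat5b, which act downstream of GM-CSF and IL-3, were at -0.21 ± 0.17 and -0.20 ± 0.18, and Stat3, downstream of gp130 and G-CSF, at -0.12 ± 0.17, or 0.024 with the length trend removed. The libraries of Ppm1bCKO lay below both others for Jak3, which was called without Ppm1bCKO replicate 1 (-0.74, edgeR adjusted p = 0.00253) and stood at -0.26 without replicate 2 (edgeR adjusted p = 0.999).

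Negative regulators and response genes had more positive than negative values. Of 15 negative regulators 10 had a positive log2 fold change (median 0.12), as did 7 of 11 STAT response genes (median 0.13), and the lists share Cish, Socs2 and Socs3. Cish, a STAT5 target that dampens cytokine signalling, stood at 12.2 and 10.4 CPM in Ppm1bCKO and at 6.95 and 6.50 CPM in Ppm1bfl/fl. Both Ppm1bCKO libraries were above both others, with a log2 fold change of 0.75 ± 0.23 that did not pass (unadjusted p = 0.0116, edgeR adjusted p = 0.590). Socs3, which inhibits gp130 and the G-CSF receptor, was at 0.13 ± 0.17 (edgeR adjusted p = 0.815). The kinase gene Pim1, a further STAT5 target, stood at 436 and 590 CPM in Ppm1bCKO and at 385 and 382 CPM in Ppm1bfl/fl (0.42 ± 0.20, edgeR adjusted p = 0.717; called without Ppm1bCKO replicate 1 at 0.62, edgeR adjusted p = 0.00368, and 0.19 without replicate 2, edgeR adjusted p = 0.999). All 4 genes of receptor shedding had negative log2 fold changes (median -0.099). Of 12 myeloid transcription factors 7 were positive (median 0.027). Cebpa, which is needed for the granulocyte-monocyte fate, was at -0.14 ± 0.16 (edgeR adjusted p = 0.802). Cebpe, a factor of late granulocyte maturation, stood at 38.5 and 61.0 CPM in Ppm1bCKO and at 32.7 and 31.6 CPM in Ppm1bfl/fl (0.63 ± 0.23, edgeR adjusted p = 0.717; called without Ppm1bCKO replicate 1 at 0.92, edgeR adjusted p = 0.00102, and 0.26 without replicate 2, edgeR adjusted p = 0.999).

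**Figure D5:**
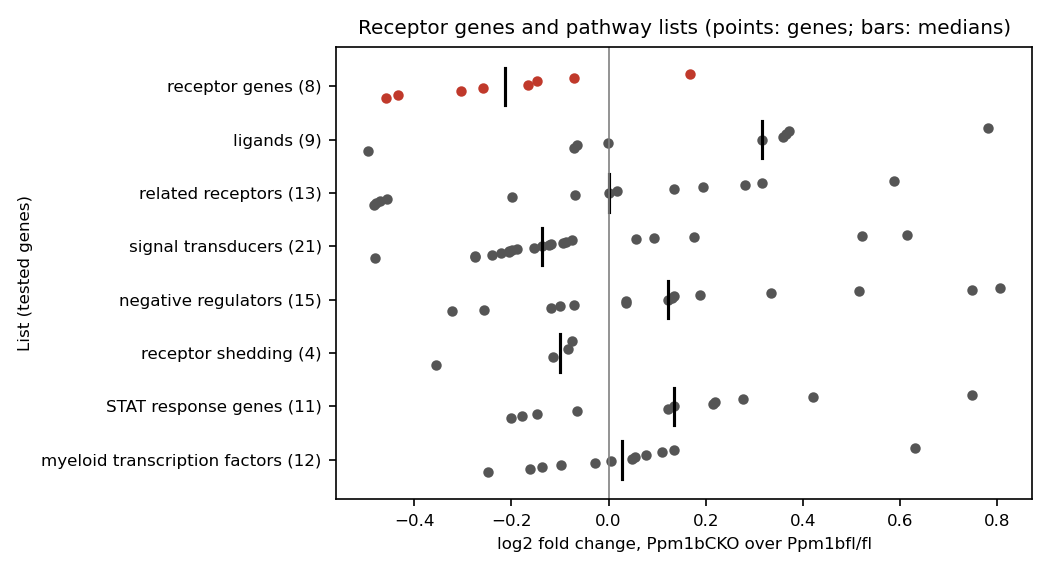
Log2 fold change, Ppm1bCKO over Ppm1bfl/fl, of each tested gene of the 7 pathway lists and of the 8 receptor genes (red), with the number of tested genes in brackets and a bar at each median. The median of the receptor genes is -0.21 and those of the lists run from -0.14 for signal transducers to 0.32 for ligands.

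The likeness of profiles over the 4 libraries was measured as the root mean square difference of log2 CPM centred on each gene's mean, among 194 other genes of the lists with an average log2 CPM of at least 1. The gene nearest to Csf2rb was Cbl (0.036) and that nearest to Csf2rb2 was Gab2 (0.022), followed by Gab3 (0.063) and Sos1 (0.054). Csf3r was nearest to Jak3 (0.080) and Tyk2 (0.099), and Il6ra to Tyk2 (0.025) and Mmp9 (0.028). Csf1r and Csf2ra, which varied least, were nearest to Rhbdf2 and Ptpn1. Il3ra was nearest to Kdr (0.064) and Il11ra1 (0.070). The genes nearest to Il6st were Kit (0.13) and Csf2rb (0.15). Of the receptor genes, Il6st also varied most about its own mean (root mean square 0.43), and the distance can grow with such variation. Over so few libraries these values only describe.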

How the data were processed

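RNA was measured by bulk RNA-seq in 4 libraries of mouse marrow cells, grouped by the genotype in their titles. The authors deposited a table of raw whole-number counts per gene with exonic lengths, per the file headers, and it was used as deposited. Per the submitters' processing notes, the tools were HISAT2 2.2.0, Trim Galore 0.6.7 and featureCounts 2.0.1, with the mm10 build, and the annotation release and strand setting are not given in the sources used here. Of 55399 Ensembl IDs, 55139 matched GENCODE M21 symbols with version numbers ignored, among them all 8 receptor genes. No column was left out.

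The test was that of edgeR 4.0.16 under R 4.3.3 (TMM, filterByExpr with a minimum count of 10 and total of 15, robust quasi-likelihood fit, Benjamini-Hochberg over 16393 genes, threshold 0.05). CPM values are TMM-normalised. Standard errors are the absolute log2 fold change over the square root of the F statistic. The members, the gene lists and the rule for named genes were chosen with earlier results of these data known. Named genes were the 8 receptors, Ppm1b, 9 pathway genes whatever their p, up to 3 genes per pathway list by smallest p, up to 2 per cell type list by mean CPM, and the 2 nearest profiles per receptor. Ly6a, Csf1, Csf2, Csf3, Il3 and Hmgxb3 were named after their values were seen. A gene that the rule would name is not reported here. Libraries of the same genotype differed by more than sampling noise (chi-square per degree of freedom 53.5 for Ppm1bCKO and 25.5 for Ppm1bfl/fl). Alternatives were DESeq2 1.42.0, limma-voom (limma 3.58.1), other normalisation and filters, a replicate block, each library left out, immunoglobulin genes left out, the paralogs summed and a length correction (lowess span 0.3). On counts of 16073 genes simulated for this comparison, the test found 45 of 100 genes with 2-fold and 96 of 100 with 4-fold changes and made 6 false calls.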

Additional observations from a re-analysis of the deposited data

How the results depend on the processing

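The edgeR call of 0 receptor genes held under 12 of 13 alternatives and became 5 without Ppm1bCKO replicate 1, so leaving out a library gave 0 to 5. The number of genes called over the whole table was 61, and it was 199 with DESeq2, 311 without a low-count filter, 94 to 3336 with a library left out, and 0 with immunoglobulin genes left out (edgeR, 989 of 16177 at an unadjusted p under 0.05). With the replicate number as a block it was 207, and 0 receptor genes were called; same-numbered libraries deviated together with a correlation of 0.064 over genes, from only 2 pairs, so the numbers were not taken to pair the libraries. Log2 fold changes kept their sign for Csf1r, Csf3r, Csf2ra, Csf2rb, Il6ra and Il6st under every alternative. With a library left out, the sign turned for Csf2rb2 (-0.47 to 0.11), Il3ra (-0.017 to 0.37), Jak1 (-0.32 to 0.047), Jak2 (-0.31 to 0.097), Adam10 (-0.23 to 0.048) and Spi1 (-0.088 to 0.28). Stat3 and Runx1 were at 0.024 and 0.028 with the length trend removed. The difference in the Csf2rb2 share ran from 1.62 to 2.67 percentage points with a library left out. Without Ppm1bCKO replicate 2 the log2 difference between genotypes was -0.037 for Csf2ra over Csf2rb (0.27 with all libraries) and -0.091 for Il6ra over Il6st (0.25). The length trend was removed, and libraries or genes were left out, only as alternatives, and the cause of these shifts was not tested. In the simulation 45 of 100 changes of 2-fold were called, and each receptor difference with all libraries was under 2-fold.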
